A study of Homo sapiens with 12 samples.

Results

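A set of 10 genes of the circadian clock and its outputs were followed through RNA sequencing of 2 ovarian cancer cell lines treated with an inhibitor of ATAD2. They were BHLHE40, BHLHE41, PER1, PER2, PER3, CRY1, CRY2, NR1D1, DBP and ARNTL, which are 10 of the 26475 gene symbols in the table of counts. The genes were chosen as a list with their responses to the inhibitor already known, so the change of each gene with the inhibitor, and the difference of that change between the lines, is given as a description without a p-value. PA-1 was established from a teratocarcinoma of the ovary and SK-OV-3 from an ovarian adenocarcinoma, and both are human. The inhibitor, BAY-850, blocks the bromodomain of ATAD2, a chromatin protein with an ATPase domain. There were 4 groups, with 3 biological replicates each and 12 libraries in all: PA-1 with the vehicle DMSO, PA-1 with 5 µM BAY-850, SK-OV-3 with DMSO and SK-OV-3 with 5 µM BAY-850, with a treatment of 48 h. PA-1 was grown in DMEM and SK-OV-3 in RPMI, both with serum, so line and medium cannot be told apart. No synchronization of the cells and no series of time points is described, and each level is therefore an average over the culture at a single harvest.

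The libraries held 34544505 to 51840233 counts. Between 17418 and 18403 genes had a count in 11 of them, while replicate 3 of SK-OV-3 with BAY-850 had the highest total and only 15626 genes with a count. Of the 5 markers set for PA-1, SOX2 (215 to 255 read counts scaled to a common library total, CPM), LIN28B and SALL4 were high in PA-1 and under 1 CPM in SK-OV-3, and DPPA4 and L1TD1 were at or below 2.42 CPM in every library. Of the 7 markers set for SK-OV-3, KRT7 (375 to 476 CPM), EPCAM, ERBB2 and PAX8 were higher in SK-OV-3 than in every PA-1 library, KRT8 and KRT18 were high in both lines, and MUC16, the CA125 antigen, did not exceed 1.01 CPM.

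The circadian clock is a feedback loop of transcription that most cells carry. ARNTL, also called BMAL1, pairs with CLOCK or NPAS2 and activates genes through a DNA element called the E-box, among them the period genes PER1, PER2 and PER3, the cryptochromes CRY1 and CRY2, and NR1D1 and DBP. The PER and CRY proteins return to the nucleus and inhibit ARNTL and CLOCK, NR1D1 (REV-ERBα) represses transcription of ARNTL, and DBP activates genes through a different element, the D-box. BHLHE40 (DEC1) and BHLHE41 (DEC2) are repressors that bind E-boxes themselves and so act on the same targets, and BHLHE40 is also known as a gene induced by hypoxia and other stresses.

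The E-box is the element that links these genes, and it was looked for in the 250 bases before and 50 bases after the RefSeq starts of the 10 genes (RefSeq sequence of GRCh38.p14, in which ARNTL carries the name BMAL1). The 6 letters CACGTG, which read the same on both strands, were present for BHLHE40, BHLHE41 and PER1, that is for 3 of the 10 genes, against 8.77% of 27305 genes with such a window. The surroundings of these 3 matches are shown with the E-box in capitals. The sequence before the start of DBP, which had none of the motifs searched, is also shown. DBP had the largest change of the 10 genes in SK-OV-3. PER1 was added after its values were seen, and its changes (1.23-fold in PA-1 and 1.39-fold in SK-OV-3) were under the 1.5-fold limit set for sequences. All 3 genes with the E-box were called higher with BAY-850 in PA-1, where the call of PER1 was not stable. In SK-OV-3, BHLHE40 and PER1 were called higher and BHLHE41 was not called (0.14). NR1D1 (0.48) and DBP (1.05), which had no CACGTG in the window, were also called higher in SK-OV-3. The genes and sequences were chosen with the responses known, and a link between motif and response was not tested.
BHLHE40: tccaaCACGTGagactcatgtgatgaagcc
BHLHE41: tggtacgttccgCACGTGagctgggtgctg
PER1: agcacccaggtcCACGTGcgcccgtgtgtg
DBP: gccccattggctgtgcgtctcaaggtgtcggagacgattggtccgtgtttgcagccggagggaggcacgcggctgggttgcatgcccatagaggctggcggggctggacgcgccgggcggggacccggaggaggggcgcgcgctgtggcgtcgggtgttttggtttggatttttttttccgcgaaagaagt

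The BHLHE40 sequence is chr3:4979187-4979216 on the forward strand, and its E-box begins 245 bases before the RefSeq start, inside an exon of the longer GENCODE gene. The BHLHE41 sequence is chr12:26125068-26125097 on the reverse strand, 48 bases before the RefSeq start and again inside a GENCODE exon. The PER1 sequence is chr17:8152560-8152589 on the reverse strand, 173 bases before the RefSeq start used here and in an intron of a longer GENCODE transcript. The DBP sequence is chr19:48637439-48637629 on the reverse strand, the 191 bases of the window that precede the GENCODE start, and 64.9% of its bases are G or C. A variant of the E-box, CACGTT on either strand, was present for PER2, CRY1, CRY2 and NR1D1 (4 of 10 genes, against 6.44% of all genes), a D-box, TTATGTAA, for PER3 (1.13% of all genes), and the short site AGGTCA, which nuclear receptors such as NR1D1 bind, for PER1, CRY2 and ARNTL (16.5% of all genes). None of these matches overlapped another. They describe letters in a window and are not binding sites.

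Among the repressors, BHLHE40 was higher with BAY-850 in both lines, and BHLHE41 passed the test in PA-1 alone. In what follows a level is in CPM scaled by TMM factors, a change is a log2 fold change of BAY-850 against DMSO from edgeR's quasi-likelihood fit with its standard error (SE), and a gene is called when its p-value, adjusted by the Benjamini-Hochberg method over all genes tested in that line, is under 0.05. BHLHE40 (chr3:4979116-4985323, GRCh38, forward strand) stood at 191, 194 and 199 CPM in PA-1 with DMSO and at 357, 357 and 355 CPM with BAY-850. The treated libraries lay far above the controls and within 2 CPM of each other, and the change was 0.87 (SE 0.05), a 1.83-fold rise. In SK-OV-3, BHLHE40 stood at 282, 276 and 279.6 CPM with DMSO and at 381, 376 and 351 CPM with BAY-850. Again no treated library overlapped a control, and the change was 0.41 (SE 0.05), or 1.33-fold. The lines thus began apart and reached similar levels, with means of 357 ± 1.10 CPM in PA-1 and 369 ± 16.1 CPM in SK-OV-3 with BAY-850 (SD, n = 3).

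BHLHE41 (chr12:26120026-26125127, reverse strand), the paralog of BHLHE40, was the scarcer of the pair. In PA-1 it stood at 8.08, 9.06 and 8.21 CPM with DMSO and at 15.1, 14.9 and 14.6 CPM with BAY-850. The groups did not overlap, and the change of 0.81 (SE 0.11), 1.76-fold, was close to that of BHLHE40 in the same cells. In SK-OV-3 it stood at 30.2, 31.3 and 32.0 CPM with DMSO and at 33.8, 39.4 and 29.4 CPM with BAY-850. The treated libraries lay on both sides of the controls, and the change of 0.14 (SE 0.10) was not called and was 0.034 without replicate 2 of BAY-850. Per base of exon, BHLHE40 made up 96.0% of the RNA of the pair in PA-1 with DMSO and 96.1% with BAY-850, and 90.2% and 91.8% in SK-OV-3.

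**Figure D1:**
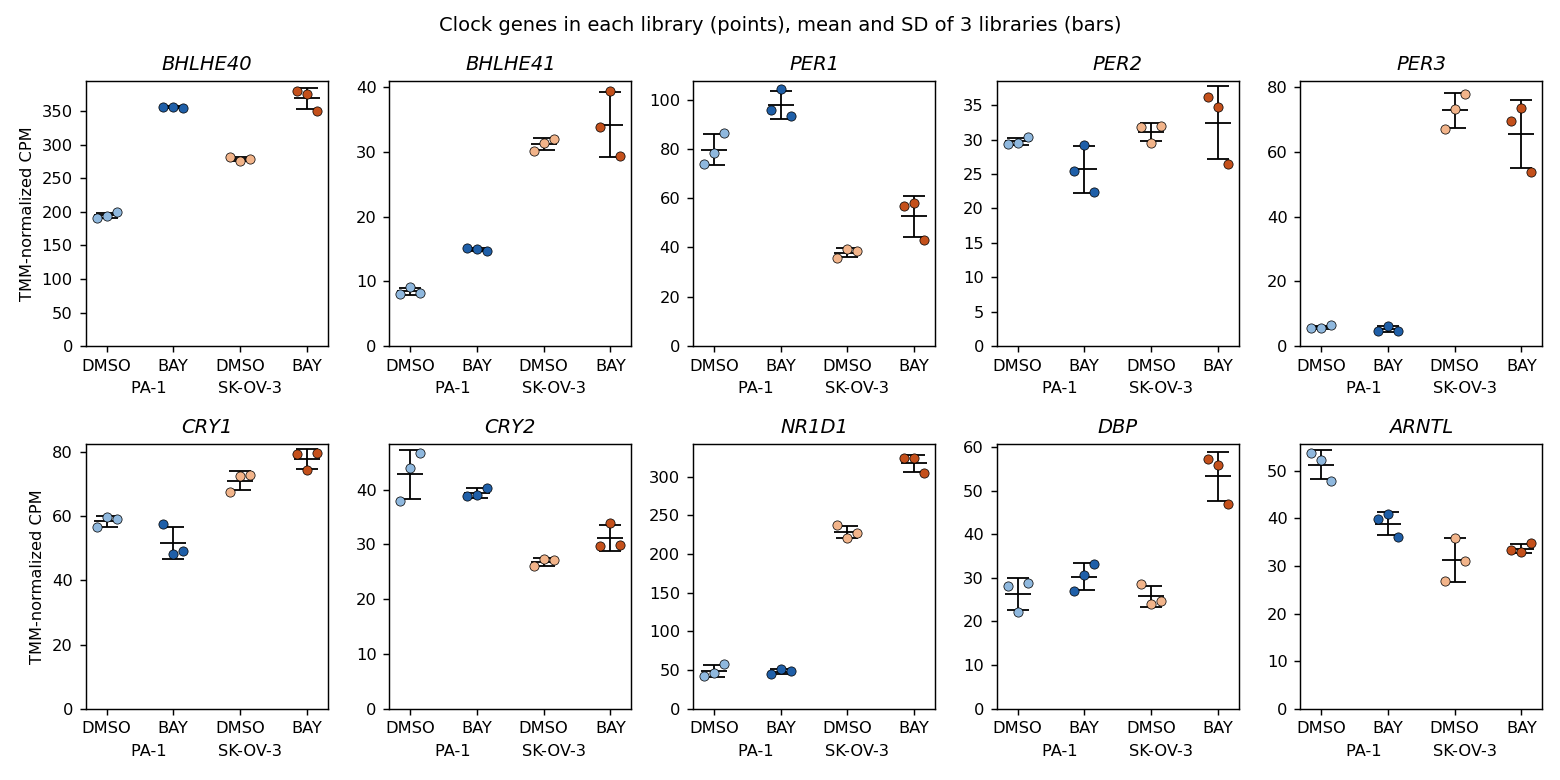
Level of each of the 10 genes in each of the 12 libraries, in TMM-normalized CPM on linear axes that begin at 0 (points: libraries; horizontal lines: mean and SD of 3 libraries; BAY stands for BAY-850). BHLHE40 rose from between 191 and 199 CPM to between 355 and 357 CPM in PA-1, and DBP rose from between 24.1 and 28.5 CPM to between 46.8 and 57.1 CPM in SK-OV-3.

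In PA-1, 4 of the 10 genes were called, 3 higher (BHLHE40, BHLHE41 and PER1) and 1 lower (ARNTL). Of the 15212 genes tested in PA-1, 7.13% were called, 4.65% higher and 2.48% lower. In SK-OV-3, 4 of the 10 were also called, all of them higher (BHLHE40, PER1, NR1D1 and DBP). Of the 15348 genes tested in SK-OV-3, 20.4% were called, 10.8% higher and 9.56% lower. The 3 treated libraries lay all above or all below the 3 controls for 5 of the 10 genes in PA-1 and for 6 in SK-OV-3, against 27.4% and 38.6% of all genes tested. Since the genes were selected with these responses known, nothing is read from the counts. The median change over the 10 genes was -0.08 in PA-1 and 0.18 in SK-OV-3, beside medians near 0 over all genes tested (-0.002 and -0.009). The median size of the change without its sign was 0.21 in PA-1 and 0.18 in SK-OV-3, beside 0.14 and 0.20 over all genes tested. For the same reason nothing is read from these medians. The levels are shares of each library's RNA from a whole culture, so fewer cells that express a gene and less RNA per cell cannot be told apart.

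**Figure D2:**
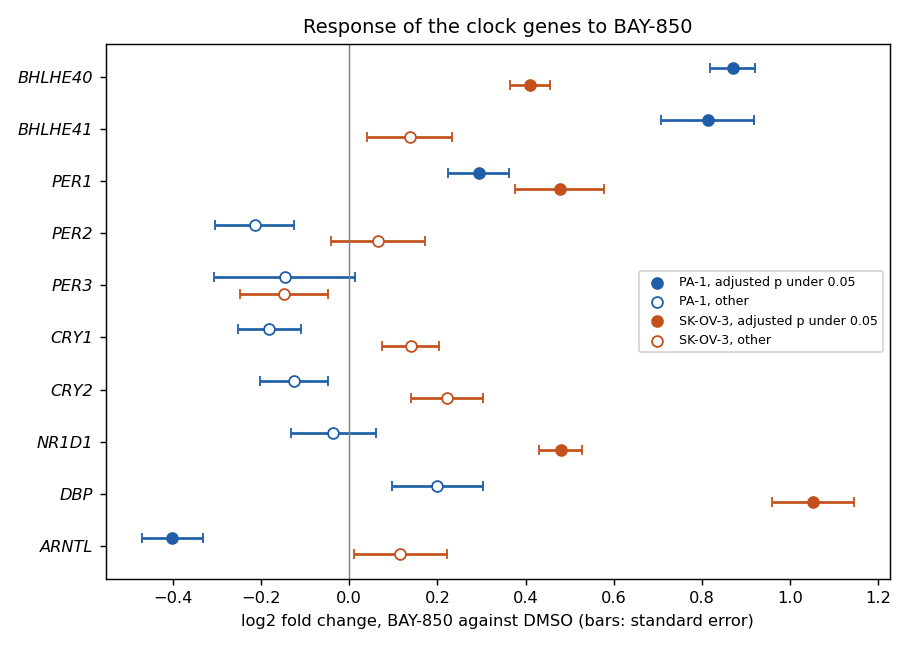
Log2 fold change of BAY-850 against DMSO for the 10 genes in PA-1 (blue) and SK-OV-3 (orange), with the SE as bars; filled points have an adjusted p under 0.05 in edgeR's quasi-likelihood test. BHLHE40 and PER1 are filled on the right in both lines, while NR1D1 and DBP are filled in SK-OV-3 alone and BHLHE41 and ARNTL in PA-1 alone.

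Of the period genes, PER1 was the only member to be called, and it was higher in both lines. The PER proteins carry the inhibitory signal of the loop, and PER1 is in addition an immediate early gene that serum, glucocorticoids and cAMP induce. PER1 (chr17:8140472-8156506, reverse strand) stood at 74.0, 78.5 and 86.4 CPM in PA-1 with DMSO and at 95.7, 104 and 93.5 CPM with BAY-850, a change of 0.29 (SE 0.07). The gap between the groups was small beside their spread, and the call in PA-1 was not stable. It was lost without replicate 1 or replicate 2 of DMSO (0.24 and 0.28) and without replicate 2 of BAY-850 (0.25). It was also lost with scaling by library size alone (0.26) and once each library's trend on GC content was removed (0.18). PER1 is rich in G and C (62.6% of the bases summed over its GENCODE transcripts, the 91.8th percentile of protein-coding genes). So are DBP (60.8%, the 86.9th percentile) and NR1D1 (59.5%, the 82.8th percentile), whose calls in SK-OV-3 were kept under every alternative run. What part GC content has in the lost call of PER1 was not tested. In SK-OV-3, PER1 stood at 35.9, 39.2 and 38.5 CPM with DMSO and at 56.8, 58.0 and 43.0 CPM with BAY-850, a change of 0.48 (SE 0.10) that was called under every alternative run. The treated libraries all lay above the controls, with replicate 3 nearest to them.

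PER2 and PER3 were called in neither line. PER2 (chr2:238244038-238290102, reverse strand), the core inhibitor of the family, stood at 29.4, 29.5 and 30.3 CPM in PA-1 with DMSO and at 25.4, 29.2 and 22.4 CPM with BAY-850. The treated libraries were all below the controls by a change of -0.21 (SE 0.09), which missed the threshold. In SK-OV-3, PER2 stood at 31.8, 29.6 and 31.9 CPM with DMSO and at 36.2, 34.7 and 26.4 CPM with BAY-850, with replicate 3 below and the other two above every control (0.06, SE 0.11). PER3 (chr1:7784320-7845177, forward strand), which is less needed for the core loop, stood at 5.57, 5.62 and 6.39 CPM in PA-1 with DMSO and at 4.79, 6.31 and 4.81 CPM with BAY-850. In SK-OV-3 it was more abundant, at 67.3, 73.4 and 78.0 CPM with DMSO and at 69.5, 73.5 and 53.8 CPM with BAY-850. The groups of PER3 overlapped in both lines, and its changes were -0.15 (SE 0.16) and -0.15 (SE 0.10).

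The 2 lines differed in the make-up of the period family. Per base of exon, PER1 gave 69.2% ± 1.14 (SD, n = 3) of the RNA of PER1, PER2 and PER3 in PA-1 with DMSO and 28.6% ± 0.89 in SK-OV-3, where PER3 led with 47.5% ± 1.37. In PA-1, PER3 gave 4.41% ± 0.11. With BAY-850 the share of PER1 was 76.2% ± 1.43 in PA-1 and 37.0% ± 0.02 in SK-OV-3, and in both lines the 3 treated libraries lay above the 3 controls. In SK-OV-3 the share of PER3 was correspondingly lower with BAY-850, at 39.8% ± 0.73. Replicate 3 of SK-OV-3 with BAY-850 was the lowest of its group for PER1, PER2 and PER3 alike, and its share of PER1 (36.9% to 37.0% over the group) was that of the other two libraries.

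**Figure D3:**
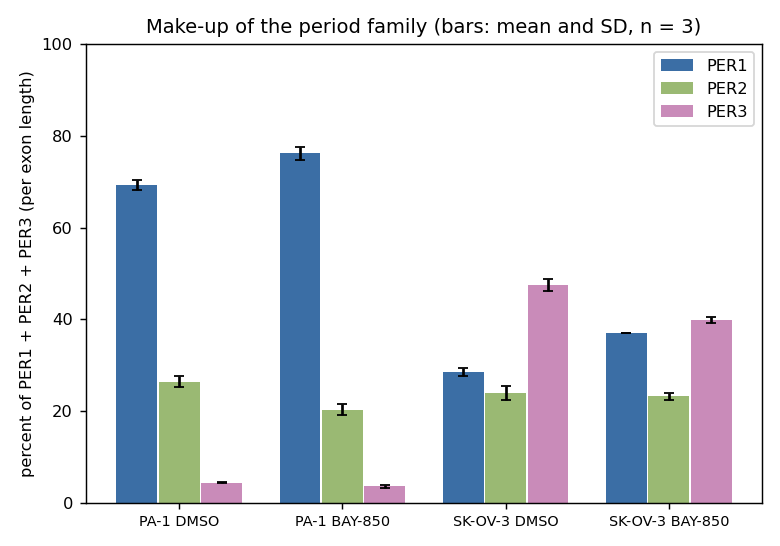
Share of PER1, PER2 and PER3 in their summed level per exon length, in percent, for the 4 groups (bars: mean of 3 libraries; lines: SD; the axis begins at 0). PER1 leads in PA-1 (69.2% with DMSO) and PER3 in SK-OV-3 (47.5% with DMSO), and the bar of PER1 is taller with BAY-850 in both lines.

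The cryptochromes moved little, and neither was called in either line. CRY1 and CRY2 are the proteins that bind CLOCK and ARNTL most directly and block their activity. CRY1 (chr12:106991364-107093829, reverse strand) stood at 56.5, 59.8 and 59.0 CPM in PA-1 with DMSO and at 57.5, 48.3 and 49.2 CPM with BAY-850. Replicate 1 with BAY-850 lay among the controls and the other two lay below them, and the change of -0.18 (SE 0.07) became a call when that library was left out (-0.27). In SK-OV-3, CRY1 stood at 67.7, 72.5 and 72.8 CPM with DMSO and at 79.3, 74.3 and 79.7 CPM with BAY-850, a change of 0.14 (SE 0.06) without overlap. CRY2 (chr11:45847118-45883248, forward strand) stood at 37.9, 43.9 and 46.7 CPM in PA-1 with DMSO and at 38.7, 39.0 and 40.4 CPM with BAY-850 (-0.12, SE 0.08). In SK-OV-3 it stood at 26.02, 27.3 and 27.1 CPM with DMSO and at 29.6, 33.9 and 29.9 CPM with BAY-850 (0.22, SE 0.08). Both cryptochromes therefore had treated libraries above all controls in SK-OV-3, by changes that missed the threshold.

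NR1D1, the nuclear receptor that represses ARNTL, was higher with BAY-850 in SK-OV-3. NR1D1 (chr17:40092787-40100725, reverse strand) stood at 237, 221 and 227.5 CPM in SK-OV-3 with DMSO and at 324, 324 and 305 CPM with BAY-850, a change of 0.48 (SE 0.05), 1.39-fold. The groups were far apart beside their spread. In PA-1 it was a much scarcer transcript, at 42.7, 46.3 and 58.1 CPM with DMSO and at 44.3, 51.0 and 48.5 CPM with BAY-850. The treated libraries fell within the range of the controls, and the change of -0.036 (SE 0.10) turned positive without replicate 3 of DMSO (0.10) or replicate 1 of BAY-850 (0.017). NR1D1 shares 263 bases of exon, 9.49% of its exon length, with THRA on the opposite strand, and whether strand was used in counting is not given in the sources used here.

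ARNTL, the activator at the top of the loop, was the only gene of the 10 to be called lower. ARNTL (chr11:13276652-13387266, forward strand) stood at 53.7, 52.2 and 48.0 CPM in PA-1 with DMSO and at 39.8, 40.8 and 36.1 CPM with BAY-850. The groups did not overlap, and ARNTL fell by 0.40 on the log2 scale (SE 0.07), to 0.757 times its level. In SK-OV-3 it stood at 26.8, 35.9 and 31.0 CPM with DMSO and at 33.3, 32.9 and 34.8 CPM with BAY-850. All treated libraries fell inside the range of the controls, and the change was 0.12 (SE 0.11), or 0.019 without replicate 1 of DMSO and 0.23 without replicate 2. In PA-1 ARNTL was lower, and the NR1D1 levels did not part from the controls. In SK-OV-3 NR1D1 was higher, and the ARNTL levels did not part from the controls. Whether either gene acted on the other in these cells was not tested.

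DBP, an activator of output genes whose mRNA is among the most strongly cycling in many tissues, had the largest change of the 10 genes in SK-OV-3. DBP (chr19:48630030-48637438, reverse strand) stood at 28.5, 24.1 and 24.7 CPM in SK-OV-3 with DMSO and at 57.1, 55.8 and 46.8 CPM with BAY-850. Every treated library was far above every control, and the change was 1.05 (SE 0.09), 2.07-fold, rank 344 of 15348 genes from the largest rise. In PA-1, DBP stood at 28.2, 22.1 and 28.8 CPM with DMSO and at 27.0, 30.6 and 33.2 CPM with BAY-850. These groups overlapped, and the change of 0.20 (SE 0.10) was not called and was 0.084 without replicate 2 of DMSO. DBP shares 661 bases of exon (10.1%) with SPHK2 on the opposite strand, and PER3 shares 868 bases (10.7%) with UTS2, also on the opposite strand. The upstream sequence of DBP printed above held none of the 4 motifs.

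Replicate 3 of SK-OV-3 with BAY-850, the library with few detected genes, was the lowest of its group for BHLHE40, BHLHE41, NR1D1 and DBP as it was for the period genes. The same library was the highest of its group for CRY1 (79.7 CPM) and ARNTL (34.8 CPM) and lay between the others for CRY2 (29.9 CPM). Without it the changes in SK-OV-3 were 0.43 for BHLHE40, 0.22 for BHLHE41, 0.59 for PER1, 0.18 for PER2, -0.033 for PER3, 0.50 for NR1D1 and 1.13 for DBP. The number of the 10 genes called in SK-OV-3 was 4 with or without it. What part this library's composition has in the values was not tested.

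With DMSO, the levels of the clock genes were compared between the lines, a comparison that does not use the response to BAY-850. By edgeR's quasi-likelihood test, 8 of the 10 genes differed, which is the share found for all genes (80.3% of 16070), so a difference between these lines is not particular to the clock. Given as PA-1 against SK-OV-3, the largest gap was that of PER3, with a log2 fold change of -3.64 (SE 0.09, adjusted p = 1.48e-12), followed by NR1D1 at -2.22 (SE 0.09, adjusted p = 2.29e-10) and BHLHE41 at -1.88 (SE 0.09, adjusted p = 8.41e-10). BHLHE40 (-0.52, adjusted p = 5.36e-07) and CRY1 (-0.28, adjusted p = 8.01e-04) were lower in PA-1 by less. PER1 (1.07, adjusted p = 2.11e-08), ARNTL (0.71, adjusted p = 2.04e-05) and CRY2 (0.67, adjusted p = 9.18e-06) were higher in PA-1. For PER2 (-0.07, SE 0.07, adjusted p = 0.414) and DBP (0.03, SE 0.11, adjusted p = 0.824) no difference was detected, and the libraries of the 2 lines overlapped.

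Levels of different genes were compared per kilobase (kb) of exon. In PA-1 with DMSO, BHLHE40 led with 50.8 ± 1.12 CPM per kb (SD, n = 3), followed by NR1D1 at 17.7 ± 2.91 CPM per kb. CRY1 (11.5) and PER1 (11.4) overlapped, as did ARNTL (7.63) and CRY2 (6.90), and PER2 (4.33) and DBP (4.03). BHLHE41 (2.14) and PER3 (0.724) closed the order, each apart from its neighbours. In SK-OV-3 with DMSO, NR1D1 led with 82.5 ± 2.87 CPM per kb, above BHLHE40 at 72.7 ± 0.74. CRY1 (14.03), PER3 (8.998) and BHLHE41 (7.89) came next without overlap, and each of PER1 (5.41), ARNTL (4.64), PER2 (4.52), CRY2 (4.33) and DBP (3.94) overlapped with its neighbour. With BAY-850, DBP left the last place in SK-OV-3 and stood at 8.14 CPM per kb, overlapping with BHLHE41 (8.66) and PER3 (8.10). In PA-1 with BAY-850, BHLHE41 (3.77) drew level with PER2 (3.73), and ARNTL (5.79) came below CRY2 (6.35) without overlap.

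**Figure D4:**
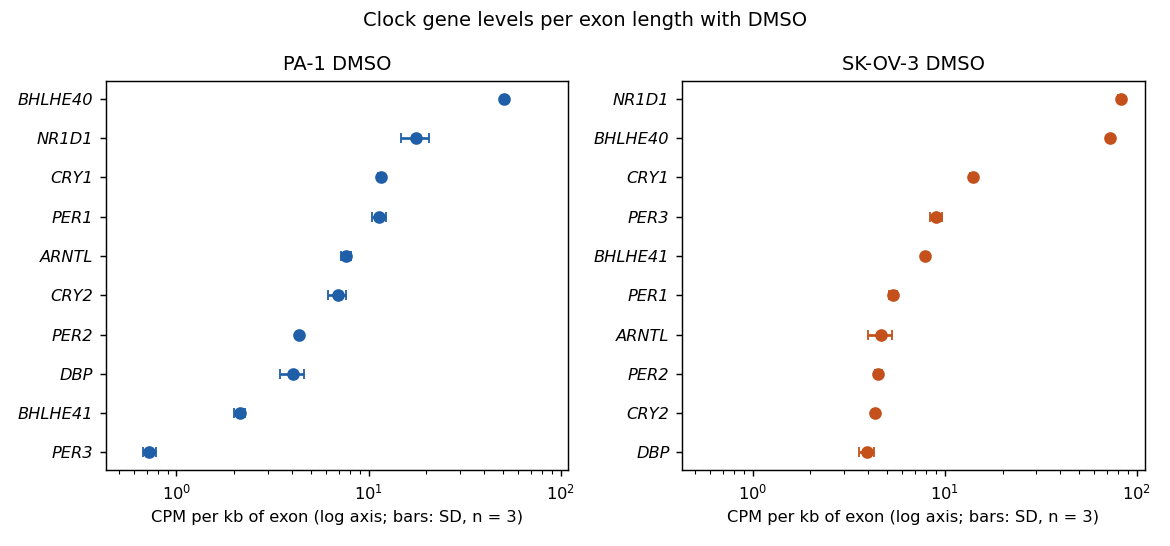
Mean level per kb of exon of the 10 genes with DMSO, on a log axis, in PA-1 (left, blue) and SK-OV-3 (right, orange), sorted within each line (bars: SD, n = 3; some are smaller than the point). BHLHE40 leads in PA-1 at 50.8 CPM per kb and NR1D1 in SK-OV-3 at 82.5 CPM per kb, and PER3 is last in PA-1 at 0.724 but follows CRY1 in SK-OV-3 at 8.998 CPM per kb.

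A call in one line and not in the other does not show that the responses differ, so the difference of the 2 responses was estimated as the interaction of line and treatment over all 12 libraries. It was called for 6 of the 10 genes, where 14.5% of 16830 genes were called, and since both responses were known when the genes were chosen nothing is read from that count. The response was weaker in SK-OV-3 than in PA-1 for BHLHE40, by -0.47 (SE 0.06), and for BHLHE41, by -0.69 (SE 0.15). It was more positive in SK-OV-3 for DBP by 0.84 (SE 0.16), for ARNTL by 0.51 (SE 0.13) and for NR1D1 by 0.50 (SE 0.12). These 5 differences were called under every alternative run. CRY1 was the sixth, at 0.31 (SE 0.10), and its call was lost in 10 of the 12 fits that leave out 1 library, with differences between 0.26 and 0.34. It was kept without replicate 1 of PA-1 with BAY-850 (0.39) or replicate 2 of SK-OV-3 with BAY-850 (0.36), and it was also lost with scaling by library size alone (0.35). CRY2 (0.33, SE 0.12), PER2 (0.27, SE 0.16), PER1 (0.17, SE 0.14) and PER3 (-0.013, SE 0.19) were not called. Without replicate 3 of SK-OV-3 with BAY-850, CRY2 (0.36) and PER2 (0.40) were called. CRY2 was also called without replicate 1 of PA-1 with DMSO (0.41), with DESeq2 (0.34) and with the GC trend removed (0.39).

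The rest of the clock was followed with a list of 25 genes drawn from general knowledge, with p-values adjusted over all genes tested by edgeR's quasi-likelihood test. This list too was drawn up with earlier results of these data known, so neither its counts nor the p-values of its genes are independent evidence. In PA-1, 2 of the 22 genes that passed the filter on low counts were called (9.09%), close to the 7.13% of all genes, and leaving out a library gave 1 call without replicate 2 of DMSO, replicate 2 of BAY-850 or replicate 3 of BAY-850, and none without replicate 1 of DMSO (5 at an unadjusted p under 0.05 in edgeR). In SK-OV-3, 10 of 23 were called (43.5%), 8 higher and 2 lower, beside 20.4% of all genes. The median change of the list was -0.04 in PA-1 and 0.12 in SK-OV-3. RORB was below the filter in both lines and FBXL21 in PA-1.

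Among the partners and loop genes, NPAS2, CIART, NR1D2 and ARNTL2 were called in SK-OV-3. NPAS2, which can replace CLOCK as the partner of ARNTL, stood at 14.1, 15.7 and 13.9 CPM with DMSO and at 23.0, 21.2 and 22.4 CPM with BAY-850, a change of 0.61 (SE 0.10, adjusted p = 0.00134). It was nearly absent from PA-1, where no library exceeded 0.449 CPM. CIART, an inhibitor of CLOCK and ARNTL, stood at 36.1, 32.8 and 31.3 CPM with DMSO and at 48.6, 50.2 and 47.9 CPM with BAY-850 (0.55, SE 0.07, adjusted p = 3.69e-04). In PA-1 it lay between 1.501 and 2.72 CPM. ARNTL2, the paralog of ARNTL, was lower in SK-OV-3 (-0.22, SE 0.06, adjusted p = 0.0204), a call lost without replicate 2 (-0.20) or 3 (-0.20) of DMSO and without replicate 1 (-0.22) or 2 (-0.19) of BAY-850. CLOCK itself, added here after its values were seen, was called in neither line (-0.06, adjusted p = 0.681 in PA-1 and -0.06, adjusted p = 0.653 in SK-OV-3).

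NR1D2 (REV-ERBβ), the close relative of NR1D1, was called in both lines in opposite directions. In PA-1 it stood at 82.9, 92.0 and 77.9 CPM with DMSO and at 76.2, 69.4 and 64.8 CPM with BAY-850 (-0.27, SE 0.07, adjusted p = 0.0428). In SK-OV-3 it stood at 78.1, 88.8 and 91.0 CPM with DMSO and at 105, 102 and 95.3 CPM with BAY-850 (0.24, SE 0.07, adjusted p = 0.0306). Both calls were weak. That in PA-1 was lost without replicate 1 (-0.28) or 2 (-0.20) of DMSO and without replicate 2 (-0.26) or 3 (-0.21) of BAY-850, and that in SK-OV-3 without replicate 1 (0.18) or 2 (0.26) of DMSO and without replicate 1 (0.21) or 2 (0.24) of BAY-850. Scaling by library size alone ended both calls (-0.30 and 0.23), and removal of the GC trend ended that in PA-1 (-0.17). The difference of the 2 responses, 0.49 (SE 0.11, adjusted p = 0.00846), kept its call throughout.

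Of the factors that bind the D-box, NFIL3, the repressor that competes with DBP there, was higher in SK-OV-3. It stood at 58.7, 52.001 and 54.4 CPM with DMSO and at 91.3, 86.4 and 88.6 CPM with BAY-850, a change of 0.70 (SE 0.07, adjusted p = 2.58e-05). DBP and its rival NFIL3 were thus both called higher in SK-OV-3. In PA-1 the change of NFIL3 was 0.17 (SE 0.06, adjusted p = 0.0810), and the difference between the lines was 0.51 (adjusted p = 4.83e-04). TEF, a relative of DBP that was added after its values were seen, was called in neither line (-0.23 in PA-1 and 0.18 in SK-OV-3), though the responses differed by 0.40 (SE 0.10, adjusted p = 0.0124). HLF, another relative and likewise added after its values were seen, had the largest change of the list in PA-1, -1.44 (SE 0.54, adjusted p = 0.121). It was not called, it stood at 0.346, 1.1995 and 1.05 CPM with DMSO and at 0.462, 0.178 and 0.317 CPM with BAY-850, and these groups overlapped.

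Among the genes listed with the kinases and ubiquitin ligases, TIMELESS was the only one called. It encodes a replication fork protein that also binds clock proteins, and it stood at 78.5, 95.0 and 91.4 CPM in SK-OV-3 with DMSO and at 69.6, 69.4 and 54.1 CPM with BAY-850 (-0.45, SE 0.10, adjusted p = 0.00720). Without replicate 3 of BAY-850, the library with few detected genes, the change of TIMELESS was -0.35 and the call was kept. The kinases CSNK1D, CSNK1E and GSK3B and the ligase components BTRC and FBXW11, which set the stability of PER and CRY proteins, were not called in either line.

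Of the output genes, NAMPT was called higher in both lines. NAMPT, the enzyme that limits NAD+ salvage, stood at 209.7, 231 and 220.5 CPM in PA-1 with DMSO and at 280.2, 264 and 258 CPM with BAY-850 (0.28, SE 0.06, adjusted p = 0.0102). In SK-OV-3 it stood at 72.1, 81.6 and 83.7 CPM with DMSO and at 95.9, 100.4 and 106 CPM with BAY-850 (0.36, SE 0.07, adjusted p = 0.00540). The treated libraries lay above the controls in both lines, and the call in PA-1 was lost without replicate 1 of DMSO (0.24). KLF9, a transcription factor that glucocorticoids induce, had the largest rise of the list in SK-OV-3, from 3.67, 4.60 and 5.28 CPM to 8.54, 8.68 and 10.2 CPM (1.02, SE 0.18, adjusted p = 0.00212). USP2, a deubiquitinase (0.63, SE 0.15, adjusted p = 0.0130), and PPARA, a nuclear receptor for fatty acids (0.45, SE 0.10, adjusted p = 0.00693), were also higher there, and the call of USP2 was lost without replicate 1 of DMSO (0.55). Replicate 3 of BAY-850 was the highest library for KLF9 and USP2. Without it the changes in SK-OV-3 were 0.92 for KLF9 and 0.49 for USP2, and both calls were kept. In PA-1 the changes were -0.28 for KLF9, -0.23 for USP2 and 0.07 for PPARA, none of them called. WEE1 and KLF10 were called in neither line.

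**Figure D5:**
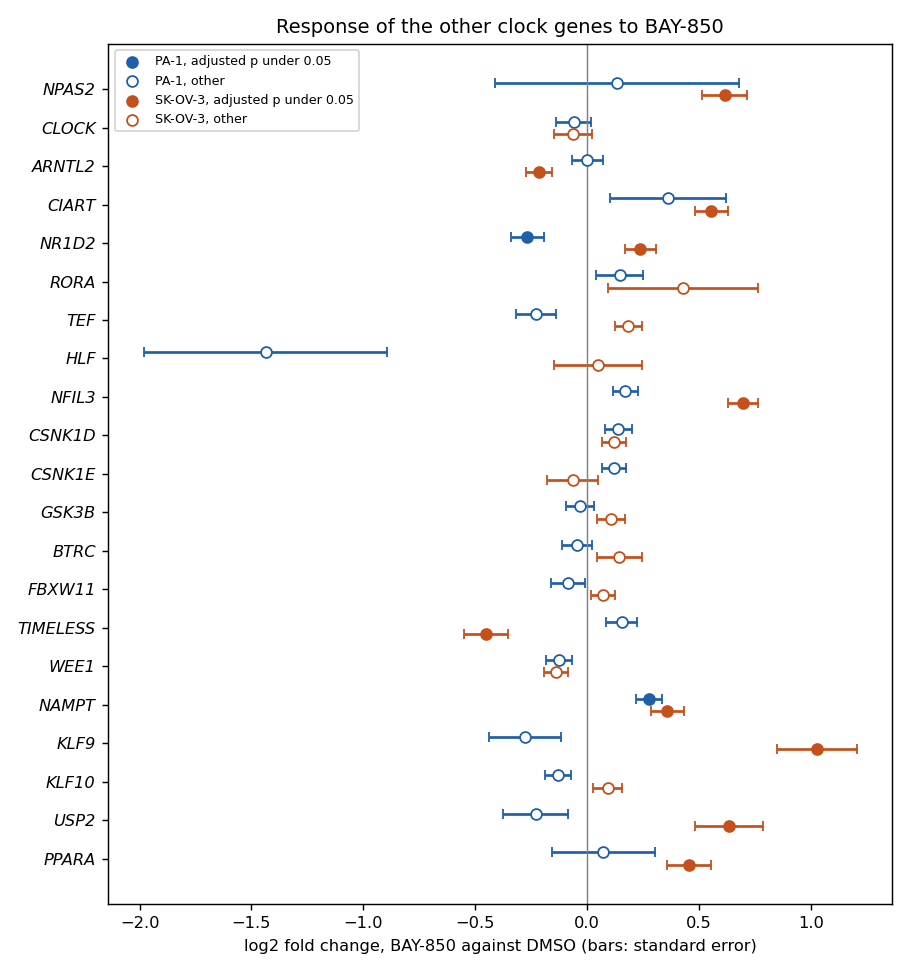
Log2 fold change of BAY-850 against DMSO, with SE bars, for 21 of the listed clock genes tested in both lines (PA-1 blue, SK-OV-3 orange; filled points have an adjusted p under 0.05 in edgeR's quasi-likelihood test). In SK-OV-3, 8 points are filled on the right and 2, ARNTL2 (-0.22) and TIMELESS (-0.45), on the left, while in PA-1 only NR1D2 (-0.27) and NAMPT (0.28) are filled.

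The genes whose levels ran most nearly parallel to those of BHLHE40 and DBP were found by Pearson's r of log2 CPM over the 12 libraries, among 9849 genes with a mean of at least 5 CPM in every group. The 12 points fall into 4 groups of replicates and share their libraries, so these values only describe the pattern. For BHLHE40 they were GYS1, a glycogen synthase (r = 0.980), CCNG2, cyclin G2 (r = 0.969), EHMT2, a histone methyltransferase (r = 0.960), ANGPTL4, an inhibitor of lipoprotein lipase (r = 0.957), and PFKFB3, a regulator of glycolysis (r = 0.930). GYS1 changed by 0.86 in PA-1 and 0.35 in SK-OV-3, and ANGPTL4 by 2.50 and 0.39. For DBP they were FLOT1, a flotillin of membrane rafts (r = 0.981), NUPR1, a nuclear protein induced by stress (r = 0.966), COL6A2, a chain of collagen VI (r = 0.963), TMEM120B (r = 0.956) and TRIP10 (r = 0.952). NUPR1 changed by 0.11 in PA-1 and 1.90 in SK-OV-3 and COL6A2 by 0.13 and 0.84. The genes were picked by r over these same libraries, so a likeness of their changes to those of BHLHE40 or DBP follows from the choice.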

How the data were processed

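RNA was made into libraries from oligo-dT selected mRNA with dUTP strand marking, although the design text of the record names depletion of ribosomal RNA. For all 12 libraries the authors deposited expected counts, 1 row per gene symbol and not normalized; the submitters' processing notes name Bowtie2 2.1.0, RSEM 1.2.15 and hg38. RSEM divides reads that could come from several genes, and 8.94% to 12.4% of a library's values were not whole. Whether strand was used is not given in the sources used here.

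Expected counts were rounded and tested with edgeR 4.0.16 (R 4.3.3): TMM factors, filterByExpr, the quasi-likelihood test and Benjamini-Hochberg adjustment over all genes tested, called under 0.05. The fits were within each line, between the lines with DMSO, and over all 12 libraries with the interaction. The SE is the log2 fold change divided by the square root of F. Member genes had 182 to 18838 counts in a library. The p-values set a difference between groups against the spread between biological replicates, which edgeR moderates over genes. In the interaction and between the lines, that spread is taken over both lines together. Replicates of a line stand for that 1 line only. Exon lengths, positions and GC contents come from GENCODE on GRCh38, matched by symbol for 23862 genes and by another symbol for 25. Of the further clock genes, 2 enter the counts but are not reported here by name. The members and lists were chosen with earlier results of these data known. Named genes were the members and the listed clock genes called in either line. CLOCK, TEF and HLF, called in neither line, were added after their values were seen. Other listed genes that were not called or were below the filter were named without values. The 5 genes most like BHLHE40 and the 5 most like DBP were also named. Sequences were for members called with a change of at least 1.5-fold, and for PER1, which was added after its values were seen.

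Replicate numbers did not pair the libraries: correlations of deviations from group means were -0.18 to 0.20 in PA-1 and 0.04 to 0.13 in SK-OV-3. The alternatives were DESeq2 1.42.0, RLE factors, library size alone, no filter, the replicate number as a block, removal of each library's loess trend on GC content (span 0.5), and leaving out each library.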

Additional observations from a re-analysis of the deposited data

Results flagged for a closer look

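The test of the difference between the lines, edgeR's interaction term over 16830 genes, drew attention to 6 of the 10 clock genes and to 6 of the 24 further clock genes tested (25%), where 14.5% of all genes were called; values are the response in SK-OV-3 minus that in PA-1 on the log2 scale. Among the repressors the difference was -0.47 for BHLHE40 and -0.69 for BHLHE41. It was 0.31 for CRY1, 0.50 for NR1D1, 0.84 for DBP and 0.51 for ARNTL. The call of CRY1 was kept in only 6 of 18 alternative fits. These 6 genes were chosen with both responses known, and no p-value is given for them. The list of further genes was also drawn up with earlier results known, so its p-values are not independent evidence.

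Of the further genes, NR1D2 differed by 0.49 (adjusted p = 0.00846), TEF by 0.40 (adjusted p = 0.0124), NFIL3 by 0.51 (adjusted p = 4.83e-04), TIMELESS by -0.62 (adjusted p = 0.00763), KLF9 by 1.29 (adjusted p = 0.00395) and USP2 by 0.85 (adjusted p = 0.0259), all by the same edgeR test. The call of USP2 was lost without replicate 3 of PA-1 with DMSO (0.72), replicate 1 of PA-1 with BAY-850 (0.73) or replicate 1 of SK-OV-3 with DMSO (0.76). Genes were not screened one by one for a library that stands apart from its group of 3, though each library was left out in turn.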

How the results depend on the processing

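The number of the 10 genes called was 3 to 5 in PA-1, 4 in SK-OV-3 under every alternative, 5 to 7 for the interaction and 8 between the lines with DMSO. With the replicate block it was 4 in PA-1, 4 in SK-OV-3 and 5 for the interaction, where CRY1 lost its call (0.31); of the other genes named, NR1D2 lost its call in SK-OV-3 (0.24). The replicate block changed no other call. Of the further clock genes, 0 were called in PA-1 with library size alone (edgeR; 6 had an unadjusted p under 0.05, 2 were called in the fit reported and 3 with DESeq2), 1 with the GC content trend removed, and 0 to 2 when a library was left out (0 without replicate 1 of DMSO, where 5 had an unadjusted p under 0.05). In SK-OV-3 the count was 8 to 11. Library size alone ended the calls of NAMPT in PA-1 (0.24) and ARNTL2 in SK-OV-3 (-0.22).

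Over all genes, the calls in PA-1 were 1085 (707 higher, 378 lower), against 1737 with DESeq2, 466 (235 higher, 231 lower) with library size alone, 594 (447 higher, 147 lower) with the GC trend removed and 340 to 1228 when a library was left out. In SK-OV-3 they were 3130, and 1781 to 3902 when a library was left out. Calls for the interaction were 2435 (1128 higher, 1307 lower), and 1835 (1062 higher, 773 lower) with library size alone.

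The values that turned direction had not been called. With library size alone, ARNTL2 in PA-1 was -0.037, the interaction was 0.030 for PER3 and 0.028 for CLOCK, and DBP between the lines with DMSO was -0.015. ARNTL2 in PA-1 was -0.0015 with DESeq2 and -0.0013 with RLE factors, and CLOCK in PA-1 was 0.046 with the GC trend removed. Leaving out a library gave -0.12 to 0.10 for NR1D1, -0.11 to 0.32 for NPAS2, -0.019 to 0.031 for ARNTL2 and -0.082 to 0.27 for PPARA in PA-1, -0.017 to 0.18 for PER2 and -0.14 to 0.0096 for CLOCK in SK-OV-3, -0.089 to 0.13 for PER3 and -0.083 to 0.063 for CLOCK in the interaction, and -0.044 to 0.15 for DBP between the lines. The cause was not tested. For single genes, 959 values kept their direction and side of the threshold, 40 lost a call, 10 gained one and 35 turned. The 959 include values that had not been called and that DESeq2 left without an adjusted p-value, such as NPAS2, CIART and PPARA in PA-1. For these only the direction was compared. With DESeq2, NFIL3 in PA-1 (0.17), TEF in SK-OV-3 (0.18) and the interaction of CRY2 (0.34) gained a call. With the GC trend removed, the interactions of CRY2 (0.39) and ARNTL2 (-0.27) gained one. PER3 in PA-1 rests on few counts, 182 in its lowest library.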
